A study of Mus musculus with 16 samples.

Results

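Messenger RNA of 9 genes of the Bcl2 family was followed in a mouse beta-cell line treated with agents that act on calcium and cyclic AMP signalling. The genes were Bcl2, Bcl2l1, Bcl2l2 and Mcl1, which promote survival, Bak1, which executes cell death at mitochondria, and Bcl2l11, Bad, Bid and Bmf, which carry only the BH3 domain and promote death. Their probe sets were found by gene symbol, and each gene was read on its probe set of highest mean. They are 9 of the 18193 genes with a named probe set and 9 of the 10609 genes tested, since all of them passed the filter on low values (log2 4 on at least 2 arrays). Bmf passed it on only 2 arrays, at 4.07 and 4.06, and is treated below as a gene near the floor of the method.

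Proteins of this family decide whether the outer mitochondrial membrane is opened during apoptosis. The pro-survival proteins hold Bax and Bak in check, the BH3-only proteins bind the pro-survival proteins or activate Bax and Bak directly, and opened mitochondria release cytochrome c, which leads to caspase activation. In beta cells, GLP-1 receptor agonists and calcium entry are known to act on survival through cyclic AMP response element binding protein (CREB) and AKT signalling, and Bcl2 and Mcl1 are known targets of CREB in several cell types.

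R7T1 beta cells, a mouse line known to be reversibly immortalised with a regulated SV40 T antigen, received BayK8644(2a) together with Exendin-4, BayK8644(2a) alone, Exendin-4 alone or DMSO as the vehicle. BayK8644 opens L-type calcium channels and exendin-4 activates the GLP-1 receptor. The labels leave the 2a unexplained, so every result for BayK8644 assumes that the compound is BayK8644, and neither the doses nor the state of the T antigen were given in the sources used here. Total RNA was hybridised at 0.5, 2, 6 and 24 h, with 1 array for each treatment and time and 16 arrays in all. Separate cultures are not stated in the labels, so a p-value here reflects the variation among these 16 arrays alone, possibly technical variation.

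Median intensity lay between 10.5 and 11.6 on the arrays and the 75th percentile between 523.2 and 555.7, and no 2 arrays correlated below 0.9947. The log2 difference between the 3' and 5' actin control probes, a sign of RNA integrity, lay between 0.59 and 0.80. Of the beta-cell markers, Ins2 lay between 15.60 and 15.79 and Pdx1 between 13.22 and 13.43 on all arrays, while Ucn3, a marker of mature beta cells, was below the filter on every array. Markers of endothelial cells and leukocytes (Pecam1, Cdh5, Ptprc, Cd68, Cd3e) were below the filter on all 16 arrays, whereas Gcg, Sst, Ttr, Cela1 and Vim were above it.

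**Figure D1:**
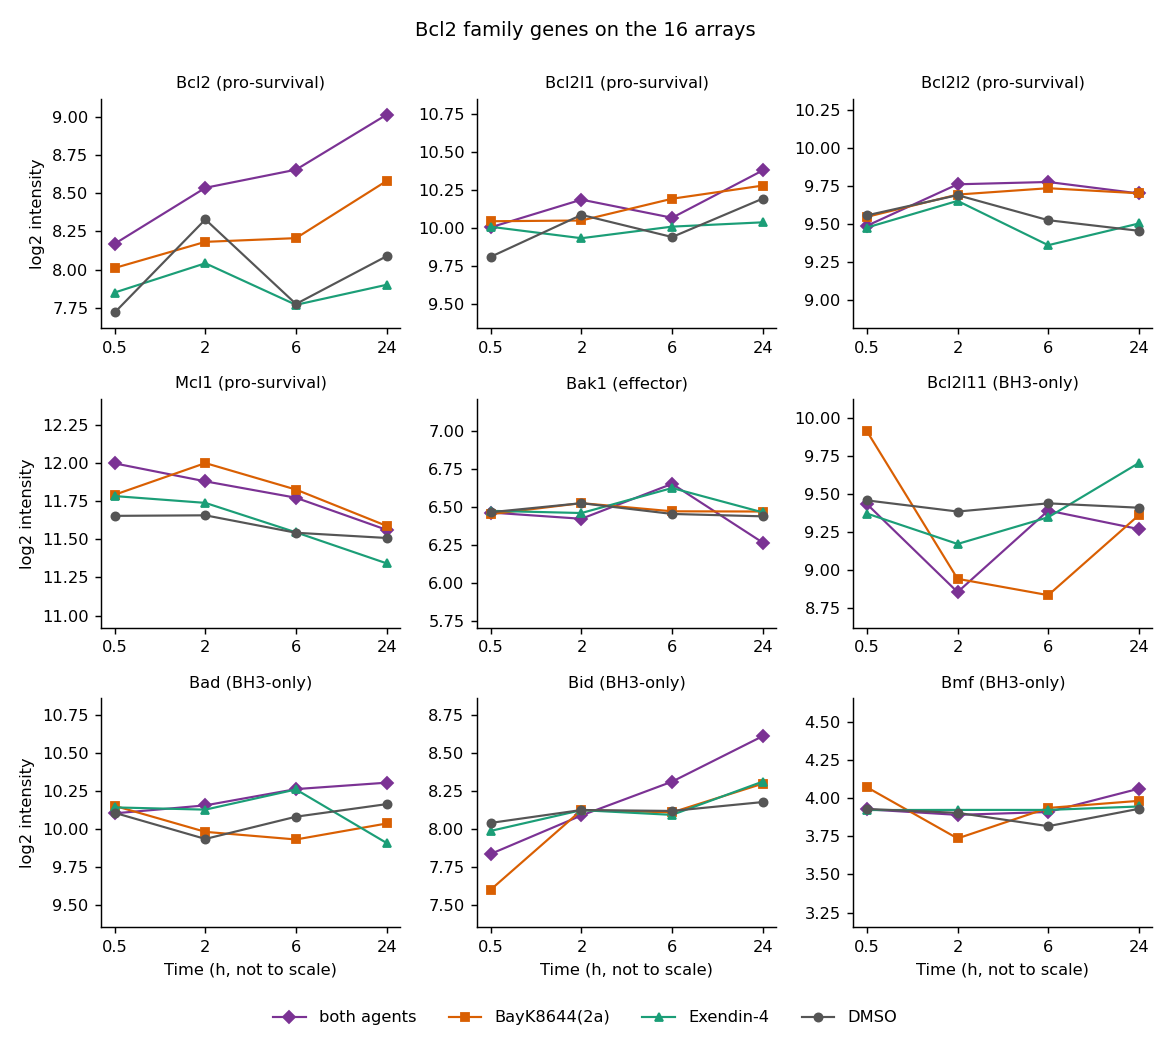
Log2 intensity of the 9 genes (1 panel each, every panel spanning the same height on the log2 scale) against time in hours, with 1 point per array and 1 line per treatment. Bcl2 is highest under both agents at all 4 times, and Mcl1 declines toward 24 h under every treatment. Bmf and Bak1 have the smallest ranges of the 9 genes over all arrays, 0.34 and 0.39.

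Bcl2 had the largest difference from DMSO among the 9 genes. Bcl2 encodes the founding pro-survival protein of the family, which sits in the outer mitochondrial and endoplasmic reticulum membranes. Its mRNA rose under the combination relative to DMSO, by 1.53-fold over the 4 times. The gene lies at chr1:106538176-106714290 of GRCm38.p6, on the minus strand. The 250 bases before its start, from RefSeq, are shown because they hold a core of the cyclic AMP response element, TGACG, in capitals, beginning 107 bases upstream.
Bcl2, chr1:106714291-106714540, minus strand: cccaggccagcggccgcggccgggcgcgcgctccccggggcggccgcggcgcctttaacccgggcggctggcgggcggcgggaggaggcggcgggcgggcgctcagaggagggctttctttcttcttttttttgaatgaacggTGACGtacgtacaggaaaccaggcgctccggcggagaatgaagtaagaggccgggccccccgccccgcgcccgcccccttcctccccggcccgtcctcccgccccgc
This core was found, on either strand, before 17.8% of the 32851 starts searched, so its presence is common, and a match describes letters and not binding. The motifs were chosen with the results known.

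The log2 intensity of Bcl2 under the combination was 8.17, 8.54, 8.65 and 9.02 at 0.5, 2, 6 and 24 h. It was 8.01, 8.18, 8.21 and 8.58 at these times with BayK8644 alone. With exendin-4 alone it was 7.85, 8.04, 7.77 and 7.90, and with DMSO it was 7.72, 8.33, 7.77 and 8.09. The combination array was the highest of the treatments at 4 of 4 times, yet its range overlapped that of DMSO because the DMSO array at 2 h stood above the combination array at 0.5 h. The ranges of the combination and exendin-4 arrays did not overlap.

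Over the 4 times, Bcl2 averaged 8.59 ± 0.35 under the combination and 7.98 ± 0.29 with DMSO (SD, n = 4 each), a log2 difference of 0.62 ± 0.12 (limma, SE; adjusted p = 0.0165). Treatments were compared in 1 fit with time as a factor, in which the 4 times stood in for replicates, and the 3 treatments shared the same 4 DMSO arrays. In this comparison 2 of the 9 members were called, Bcl2 and Mcl1, beside 6.98% of all genes tested. The median difference over the members was 0.12, against 0.02 over all genes. Each array measured the RNA of a whole culture, so fewer cells of a type and less RNA per cell cannot be told apart in this or any later difference. Bcl2 lost its call without the DMSO array at 6 h, the combination array at 6 h or that at 24 h, with differences from 0.53 to 0.56 and adjusted p from 0.0683 to 0.0774. With the mean of its probe sets above the filter in place of the highest one, the difference was 0.32 (adjusted p = 0.113).

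Bcl2 was also higher under the combination than with exendin-4 alone, by 0.70 ± 0.12 (limma, adjusted p = 0.0162). It was the only 1 of the 9 members called there, beside 1.89% of all genes. Without the exendin-4 arrays at 2, 6 or 24 h, or the combination arrays at 6 or 24 h, each left out singly, the difference was 0.61 to 0.73 with adjusted p of 0.056 to 0.0925. The count of members rose to 2 without the exendin-4 array at 0.5 h, which added Mcl1, and without the combination array at 0.5 h, which added Bcl2l2. Against BayK8644 alone, the combination was higher for Bcl2 at 4 of 4 times, by 0.35 ± 0.12 (adjusted p = 0.305). None of the members passed in that comparison, 0 of 9, with 2 at an unadjusted p under 0.05 and 0% of all genes called. The test of whether the effects of the agents added up gave 0.44 ± 0.17 for Bcl2 (adjusted p = 0.734), the highest of the 9 values. It called 0 members and 0% of all genes, with 1 member, Bcl2, at an unadjusted p under 0.05.

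Each agent alone gave no call among the members against DMSO. For BayK8644 alone, 0 of 9 members passed, with 2 at an unadjusted p under 0.05, beside 0.839% of all genes. Their median difference was 0.04, which is the value of Bmf near the floor, against -0.01 over all genes. Bcl2 differed by 0.27 ± 0.12 (limma, adjusted p = 0.332) and was higher with BayK8644 than with DMSO at 3 of 4 times. For exendin-4 alone, 0 of 9 members passed and 0 had an unadjusted p under 0.05, beside 0% of all genes called and 698 of them at an unadjusted p under 0.05. The members' differences for exendin-4 lay between -0.09 for Bcl2 and 0.04 for Bad. With the 95% interval of Bcl2 running from -0.35 to 0.18, these arrays do not show that exendin-4 leaves Bcl2 as it was.

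Setting all 8 arrays with BayK8644 against the 8 without it, over both states of exendin-4, called 2 of 9 members, Bcl2 and Mcl1, beside 8.85% of all genes. In that fit Bcl2 averaged 8.42 with BayK8644 and 7.93 without it, a difference of 0.49 ± 0.10 (limma, adjusted p = 0.0104). The same fit for exendin-4 called 0 of 9 members, with 0 at an unadjusted p under 0.05, beside 0% of all genes, and gave 0.13 ± 0.10 for Bcl2 (adjusted p = 0.615).

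Mcl1 differed by less than Bcl2 but in the same direction on every one of its probe sets. Mcl1 encodes a short-lived pro-survival protein whose level depends on continuous synthesis, and its mRNA rose under the combination relative to DMSO, by 1.16-fold. The gene lies at chr3:95656944-95663179. The 250 bases before its listed start are shown beside those of Bcl2, but the windows are unlike. That of Mcl1 lies inside the gene span given here, and that of Bcl2 lies just outside its gene. The Mcl1 window holds none of the 3 motifs searched, which says only that these letters are absent from it.
Mcl1, chr3:95658471-95658720, plus strand: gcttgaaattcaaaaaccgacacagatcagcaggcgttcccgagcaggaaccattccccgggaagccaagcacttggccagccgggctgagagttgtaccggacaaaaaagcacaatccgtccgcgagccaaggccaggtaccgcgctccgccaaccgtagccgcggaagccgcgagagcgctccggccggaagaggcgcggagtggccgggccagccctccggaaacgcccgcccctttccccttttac

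Under the combination, the log2 intensity of Mcl1 was 12.00, 11.88, 11.77 and 11.56 at 0.5, 2, 6 and 24 h. BayK8644 alone gave 11.79, 12.00, 11.83 and 11.59. Exendin-4 alone gave 11.78, 11.74, 11.55 and 11.34, against 11.65, 11.66, 11.54 and 11.51 with DMSO. At each time, on the probe set read here, the combination and BayK8644 arrays stood above the DMSO array, with the smallest gaps at 24 h. The other probe sets of Mcl1 did not all share this time course. On the probe set read here, the pooled ranges overlapped because every treatment was lowest at 24 h.

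Mcl1 averaged 11.80 ± 0.19 under the combination and 11.59 ± 0.08 with DMSO (SD, n = 4 each), a log2 difference of 0.21 ± 0.06 (limma, adjusted p = 0.0434). With BayK8644 alone the average was 11.80 ± 0.17 and the difference from DMSO was also 0.21 ± 0.06 (adjusted p = 0.113). Without the BayK8644 array at 0.5 h, Mcl1 passed in that comparison, so the count of members there became 1. Between the combination and BayK8644 alone, Mcl1 differed by 0.00 ± 0.06, with a 95% interval from -0.12 to 0.12. Exendin-4 alone gave 11.60 ± 0.20 and a difference of 0.01 ± 0.06 from DMSO (adjusted p = 0.983). In the fit of all arrays with BayK8644 against all without it, Mcl1 differed by 0.21 ± 0.04 (adjusted p = 0.00632).

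The call of Mcl1 for the combination against DMSO was close to the threshold. It was lost when any of 11 of the 16 arrays was left out (DMSO at 0.5, 2 and 6 h, BayK8644 at 6 and 24 h, exendin-4 at 2 and 6 h, and all 4 combination arrays), with differences from 0.17 to 0.23 and adjusted p from 0.0531 to 0.148. Centring each array on its median gave 0.18 (adjusted p = 0.0649) and quantile normalization 0.19 (adjusted p = 0.0614).

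**Figure D2:**
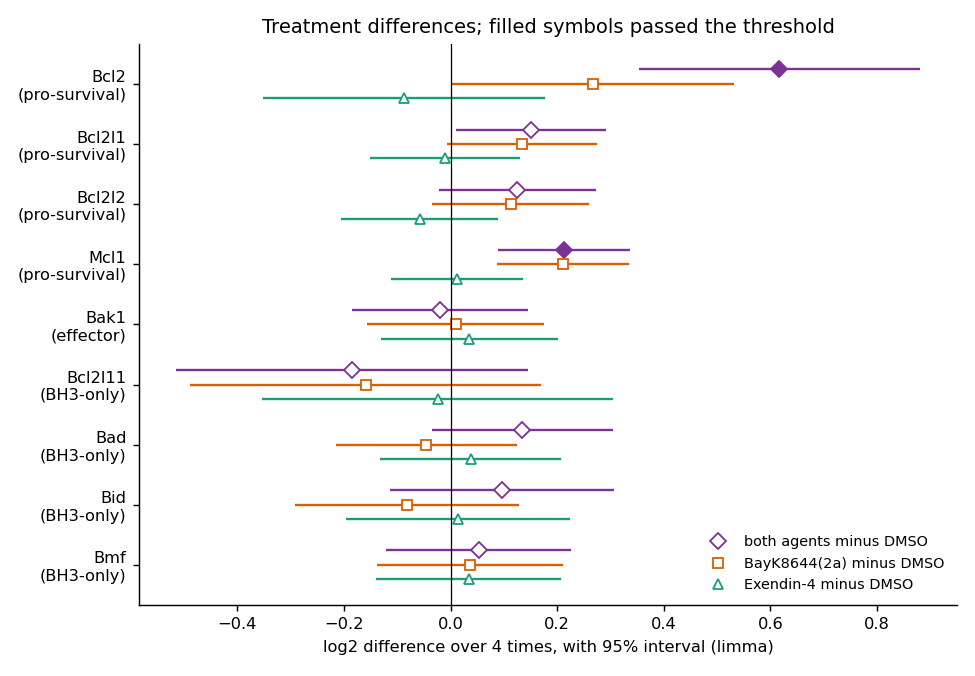
Log2 difference of each treatment from DMSO over the 4 times (x axis) for each of the 9 genes, with 95% intervals from limma and filled symbols where the adjusted p passed the threshold. The filled symbols belong to Bcl2 at 0.62 and Mcl1 at 0.21 under both agents, and the exendin-4 values lie between -0.09 and 0.04.

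Bcl2l1 and Bcl2l2, the remaining pro-survival members, did not pass in any comparison of treatments. Bcl2l1 encodes Bcl-xL, a survival protein active in beta cells, at chr2:152758732-152833803. Its log2 intensity under the combination was 10.00, 10.19, 10.07 and 10.38 at 0.5, 2, 6 and 24 h, and with BayK8644 alone 10.04, 10.05, 10.19 and 10.28. With exendin-4 alone it was 10.01, 9.93, 10.01 and 10.04, and with DMSO 9.81, 10.09, 9.94 and 10.19. The combination array was above the DMSO array at 4 of 4 times, by 0.15 ± 0.07 over them (limma, adjusted p = 0.153), and the ranges overlapped. With BayK8644 present, over all arrays, Bcl2l1 differed by 0.15 ± 0.05 (adjusted p = 0.0549).

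Bcl2l2 encodes Bcl-w, a pro-survival relative known for its role in sperm cells and neurons, at chr14:54883366-54890858. The combination gave 9.49, 9.76, 9.78 and 9.70 at 0.5, 2, 6 and 24 h and BayK8644 alone 9.55, 9.69, 9.74 and 9.70. Exendin-4 alone gave 9.48, 9.65, 9.36 and 9.50, against 9.56, 9.69, 9.53 and 9.46 with DMSO. At 2, 6 and 24 h the arrays with BayK8644 stood above those without it, at 2 h by less than 0.01, and at 0.5 h they overlapped. Over the 4 times the combination differed from DMSO by 0.12 ± 0.07 (limma, adjusted p = 0.252), and the presence of BayK8644 by 0.15 ± 0.05 (adjusted p = 0.0691).

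Bak1, the effector among the 9 genes, passed no test in these data. Its protein forms the pores of the outer mitochondrial membrane, and the gene lies at chr17:27019812-27028627. The log2 intensity was 6.46, 6.42, 6.65 and 6.27 under the combination at 0.5, 2, 6 and 24 h, and 6.45, 6.53, 6.47 and 6.47 with BayK8644 alone. It was 6.47, 6.46, 6.62 and 6.46 with exendin-4 alone and 6.47, 6.52, 6.45 and 6.44 with DMSO. Outside the arrays with exendin-4, the values spanned less than 0.1, and the differences from DMSO were -0.02, 0.01 and 0.04 for the combination, BayK8644 alone and exendin-4 alone, each with SE 0.08 (limma, adjusted p from 0.892 to 0.974). The SD of Bak1 over the 16 arrays was 0.08, larger than that of 15.8% of all genes tested. Bax, the partner effector, was not analysed here.

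Among the BH3-only genes, Bcl2l11 varied most and still passed no test of treatment. Bcl2l11 encodes Bim, which binds all pro-survival proteins of the family and is known as a FoxO target, and it lies at chr2:128126038-128162547. The 250 bases before the first of its listed starts are shown because they hold the FoxO motif GTAAACA, in capitals, beginning 227 bases upstream, which 3.17% of the 32851 windows hold on either strand.
Bcl2l11, chr2:128125788-128126037, plus strand: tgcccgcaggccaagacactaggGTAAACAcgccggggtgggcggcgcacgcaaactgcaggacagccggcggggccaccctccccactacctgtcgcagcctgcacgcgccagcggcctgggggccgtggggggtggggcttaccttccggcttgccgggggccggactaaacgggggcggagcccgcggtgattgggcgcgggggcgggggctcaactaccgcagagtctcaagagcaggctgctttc
The AP-1 motif TGAGTCA, searched likewise, occurred in 4.46% of all windows and in none of the members' windows. The only other matches among the members were a pair of TGACG cores before a start of Bmf, and no matches overlapped.

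Under the combination, Bcl2l11 had a log2 intensity of 9.43, 8.86, 9.39 and 9.27 at 0.5, 2, 6 and 24 h. BayK8644 alone gave 9.91, 8.94, 8.84 and 9.36. Exendin-4 alone gave 9.37, 9.17, 9.35 and 9.70, against 9.46, 9.39, 9.44 and 9.41 with DMSO. On the probe set read here, the DMSO arrays spanned less than 0.1, whereas BayK8644 alone held both the highest value, at 0.5 h, and the lowest, at 6 h. On another probe set of Bcl2l11, the DMSO arrays ran from 7.47 to 7.85. The combination array was above the DMSO array at 0 of 4 times on the probe set read here, which did not hold on every probe set. The mean on the one read here was 9.24 ± 0.26 under the combination and 9.42 ± 0.03 with DMSO (SD, n = 4 each). This is a difference of -0.19 ± 0.15 (limma, adjusted p = 0.454). For BayK8644 alone the difference was -0.16 ± 0.15 (adjusted p = 0.676), and for exendin-4 alone it was -0.02 ± 0.15 (adjusted p = 0.987). The SD over the 16 arrays was 0.28, larger than that of 89.2% of all genes.

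Bad, whose protein is held inactive by phosphorylation, lies at chr19:6941861-6951905. Its log2 intensity was 10.10, 10.16, 10.26 and 10.31 under the combination and 10.15, 9.98, 9.93 and 10.04 with BayK8644 alone at 0.5, 2, 6 and 24 h. Exendin-4 alone gave 10.14, 10.13, 10.26 and 9.91, against 10.11, 9.94, 10.08 and 10.16 with DMSO. The ranges of the 4 treatments over the 4 times overlapped, while at 2 and at 6 h both arrays with exendin-4 stood above both without it. The combination differed from DMSO by 0.13 ± 0.08 (limma, adjusted p = 0.282) and from BayK8644 alone by 0.18 ± 0.08 (adjusted p = 0.364).

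Bid links death receptors to mitochondria once caspase 8 cleaves its protein, and lies at chr6:120893119-120917062. The combination gave log2 values of 7.84, 8.09, 8.31 and 8.61 at 0.5, 2, 6 and 24 h, and BayK8644 alone 7.60, 8.12, 8.11 and 8.30. Exendin-4 alone gave 7.99, 8.12, 8.09 and 8.31, against 8.04, 8.13, 8.12 and 8.18 with DMSO. At 0.5 h both arrays with BayK8644 were below both arrays without it, and at 24 h the combination array was the highest of the 16. Over the 4 times the combination differed from DMSO by 0.10 ± 0.10 (limma, adjusted p = 0.549).

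Bmf, whose protein is released from the actin cytoskeleton under stress, lies at chr2:118528757-118549686. Its values lay between 3.89 and 4.06 under the combination, 3.74 and 4.07 with BayK8644 alone, 3.92 and 3.95 with exendin-4 alone, and 3.82 and 3.93 with DMSO. The highest-mean of its 3 probe sets stayed near the floor of the method, and a difference of the gene was not measurable there. The arrays on which it reached the filter both had BayK8644, at 4.07 with BayK8644 alone and 4.06 under the combination.

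Taken at each time, 1 member passed for BayK8644, Bcl2 at 24 h, and none passed for exendin-4. In this fit the 2 arrays with an agent were set against the 2 without it at each time, the effects of the agents were taken to add up and the error was pooled over the times, with 4 residual degrees of freedom. For BayK8644, 0 of 9 members passed at 0.5 h, with 2 at an unadjusted p under 0.05 and 0.217% of all genes called. At 2 h 0 passed, with 2 at an unadjusted p under 0.05, beside 1.63% of all genes. At 6 h 0 passed, with 3 at an unadjusted p under 0.05, beside 2.47% of all genes. At 24 h 1 of 9 passed, beside 5.1% of all genes.

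Bcl2 at 24 h had 9.02 and 8.58 on the arrays with BayK8644, against 7.90 and 8.09 on those without it, a difference of 0.80 ± 0.19 (limma, adjusted p = 0.049). The values of the arrays with and without BayK8644 did not overlap at 0.5, 6 or 24 h and overlapped at 2 h, and the differences at 0.5, 2 and 6 h were 0.31, 0.17 and 0.66, each with the same SE. The change of the BayK8644 effect on Bcl2 between 24 and 0.5 h was 0.50 ± 0.27 (adjusted p = 0.433), so the effect was not shown to differ between these times. The call at 24 h was lost without any single array of 0.5 h or 6 h, with the difference still 0.80 and adjusted p from 0.0693 to 0.0952. It was also lost when the exendin-4 array or that of the combination at 24 h was left out, with a difference of 0.49 and adjusted p of 0.392 and 0.393. Without the DMSO or the BayK8644 array at 24 h, 2 members were called, Bcl2 and Bad.

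Some markers of other cell types differed between the same arrays. At 24 h, 2 of the 4 alpha, delta and PP cell markers tested rose with BayK8644 (50%, beside 5.1% of all genes called). Sst, the hormone of delta cells, was at 7.61 and 7.37 with BayK8644, against 5.13 and 5.14 without it (limma, adjusted p = 0.000218), and Gcg, the hormone of alpha cells, at 9.72 and 9.58, against 9.10 and 9.08 (adjusted p = 0.0176). The others did not pass: Irx2, an alpha-cell factor, went the other way, with 4.20 and 4.26, against 4.82 and 4.92 (adjusted p = 0.0913), and Ttr, which encodes transthyretin, was at 16.53 and 16.60, against 16.43 and 16.35 (adjusted p = 0.0771). Ppy and Hhex were below the filter on all arrays.

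The summed linear intensity of the 6 alpha, delta and PP cell markers on the array lay between 95377 and 100068 with BayK8644 and between 84253 and 88723 without it, but Ttr made up 98.6 to 99.3% of it over the 16 arrays. Without Ttr the sum lay between 954 and 1063 with BayK8644 and between 613 and 618 without it. Vim, a mesenchymal gene, was at 11.26 and 11.19 with BayK8644, against 10.23 and 10.27 without it (adjusted p = 0.000499). The sum of the 11 mesenchymal, endothelial and leukocyte markers lay between 2388 and 2502 with BayK8644 and between 1259 and 1288 without it, with the 10 markers other than Vim below the filter on all arrays.

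Of the 9 beta-cell markers tested, 1 passed for BayK8644 at 24 h (11.1%, beside 5.1% of all genes). Nkx2-2, a beta-cell transcription factor, averaged 12.32 with BayK8644 and 12.96 without it (-0.64 ± 0.06, limma, adjusted p = 0.000499). At an unadjusted p under 0.05 there were 4, with Nkx6-1 at -0.28, Neurod1 at -0.24 and Slc2a2 at 0.54 beside Nkx2-2. The sum of the 10 beta-cell markers on the array, to which the brightest genes such as Iapp and Ins2 give most, lay between 171354 and 176885 with BayK8644 and between 168445 and 177186 without it.

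For the combination against DMSO over all times, Gcg (0.49 ± 0.12, limma, adjusted p = 0.0311) and Vim (0.50 ± 0.14, adjusted p = 0.0436) rose. None of the 9 beta-cell markers passed there, with 4 at an unadjusted p under 0.05, beside 6.98% of all genes called. The alpha, delta and PP cell marker sums without Ttr lay at 853 to 1165 for the combination and 613 to 833 for DMSO. Those of the mesenchymal, endothelial and leukocyte markers lay at 1406 to 2388 for the combination and 1117 to 1282 for DMSO. The part of these markers in the results for Bcl2 and Mcl1 was not tested.

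For exendin-4 at each time, 0 of 9 members passed at 0.5 h, with 1 at an unadjusted p under 0.05 and 0.00943% of all genes called. At 2 h 0 of 9 passed beside 0.0189% of all genes, and at 6 h and 24 h 0 of 9 passed beside 0% of all genes, with 0 members at an unadjusted p under 0.05 at these 3 times. The member with the largest exendin-4 value was Bcl2l11 at 0.5 h, at -0.28 ± 0.17 (limma, adjusted p = 1), with 9.43 and 9.37 on the arrays with exendin-4 and 9.91 and 9.46 on those without it.

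**Figure D3:**
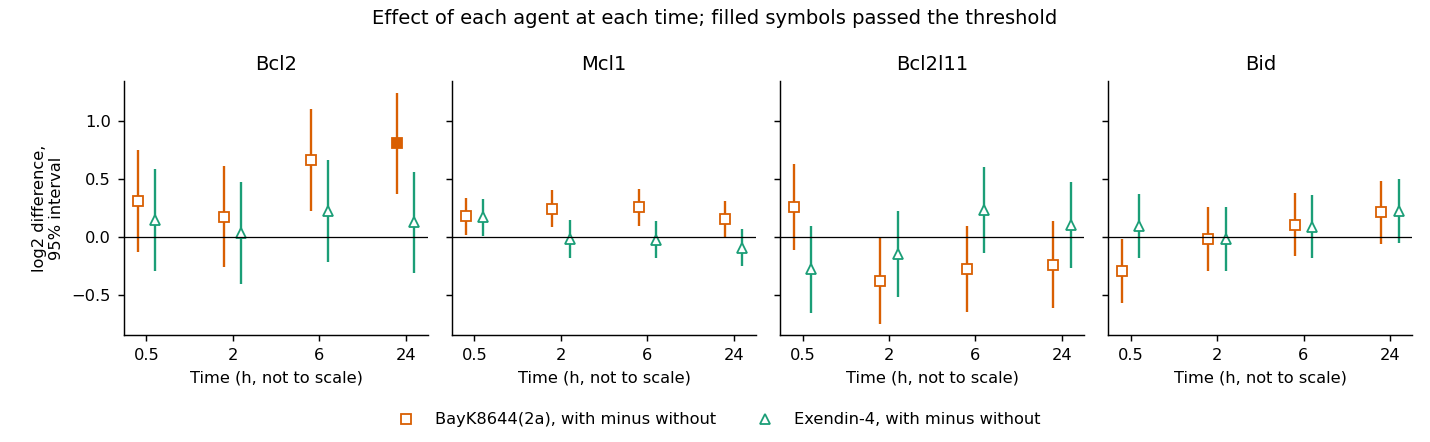
Log2 difference between the 2 arrays with an agent and the 2 without it at each time (x axis, hours, not to scale), with 95% intervals from limma, for Bcl2, Mcl1, Bcl2l11 and Bid. The 1 filled symbol is Bcl2 with BayK8644 at 24 h, at 0.80, and the Mcl1 values for BayK8644 lie between 0.15 and 0.25 at all 4 times.

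The log2 differences of Mcl1 with BayK8644 present against absent were 0.18, 0.24, 0.25 and 0.15 at 0.5, 2, 6 and 24 h, each with SE 0.07, and the arrays with BayK8644 lay above those without it at every time. None of these passed over all genes, with adjusted p of 1, 0.175, 0.118 and 0.254 (limma). Bcl2l11 had values of 0.26, -0.38, -0.28 and -0.24, each with SE 0.17, and Bid of -0.29, -0.02, 0.10 and 0.21, each with SE 0.12. The tests of whether an effect differed over time called no member. The BayK8644 effect at 24 h less that at 0.5 h called 0 of 9, with 1, Bid at 0.50 ± 0.17 (adjusted p = 0.225), at an unadjusted p under 0.05, beside 0.98% of all genes. The F test over the 4 times for BayK8644 called 0 of 9, with 0 at an unadjusted p under 0.05, beside 0.613% of all genes. For exendin-4 the 24 h less 0.5 h contrast called 0 of 9, with 1 (Mcl1, -0.26 ± 0.10) at an unadjusted p under 0.05, beside 0.00943% of all genes, and the F test called 0 of 9, with 0 at an unadjusted p under 0.05, beside 0.00943% of all genes.

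With time in culture, between 24 and 0.5 h, 4 of the 9 members passed the test, beside 23.6% of all genes tested. At most 2 passed in a comparison of treatments, beside 6.98 or 8.85% of all genes where 2 did. These counts alone thus do not rank time above treatment for the members. Over the 4 treatments, Bid, Bcl2 and Bcl2l1 rose and Mcl1 fell. The median difference over the members was 0.02, which is the value of Bmf near the floor, against 0.00 over all genes. All treatments shared the times, and each of these differences pools the DMSO arrays with those of cells given an agent. Time in the experiment and agent effects that changed with time are not told apart in such a pooled difference. Markers passed between these times as well: Vim (0.45 ± 0.14, limma, adjusted p = 0.0289), Sst (6.31 at 24 h and 5.11 at 0.5 h, adjusted p = 0.0305), Ttr (0.15 ± 0.04, adjusted p = 0.0114) and Iapp (0.11 ± 0.03, adjusted p = 0.0271) rose, and Pcsk1 was at -0.20 ± 0.06 (adjusted p = 0.0384). These were 2 of 9 beta-cell, 2 of 4 alpha, delta and PP cell and 1 of 1 mesenchymal, endothelial and leukocyte markers tested. From 0.5 to 24 h, Sst went from 5.12 to 5.14 with DMSO and from 5.12 to 5.13 with exendin-4 alone. It went from 5.10 to 7.37 with BayK8644 alone and from 5.11 to 7.61 under the combination. Vim went from 10.26 to 10.23 with DMSO and from 10.24 to 10.27 with exendin-4 alone. With BayK8644 alone Vim went from 10.26 to 11.26 and under the combination from 10.40 to 11.19. The alpha, delta and PP cell marker sum without Ttr lay between 613 and 1063 at 24 h and between 833 and 899 at 0.5 h. The part of these markers was not tested.

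Bid rose by 0.48 ± 0.10 (limma, adjusted p = 0.00299), averaging 8.35 ± 0.18 at 24 h and 7.87 ± 0.20 at 0.5 h (SD, n = 4 each), and the values at these times did not overlap. Bid was higher at 24 h than at 0.5 h under each treatment, least so with DMSO, where it went from 8.04 to 8.18. With exendin-4 alone it went from 7.99 to 8.31, with BayK8644 alone from 7.60 to 8.30 and under the combination from 7.84 to 8.61. It was the only 1 of these 4 genes to keep its call under all 27 alternatives tried. Bcl2 rose by 0.46 ± 0.12 (adjusted p = 0.0156), with 8.40 ± 0.50 at 24 h and 7.94 ± 0.20 at 0.5 h (SD, n = 4 each), and these values overlapped. Its call was lost without the BayK8644 array at 24 h (0.41, adjusted p = 0.0611), the combination array at 24 h (0.37, adjusted p = 0.068) or the combination array at 0.5 h (0.38, adjusted p = 0.061).

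Bcl2l1 rose by 0.25 ± 0.07 (limma, adjusted p = 0.0128), with 10.22 ± 0.14 at 24 h and 9.97 ± 0.11 at 0.5 h. Without the combination array at 24 h its difference was 0.22 (adjusted p = 0.0525), and without that array the count of members called fell to 2, Mcl1 and Bid. Mcl1 fell by 0.31 on the log2 scale, with an SE of 0.06 (adjusted p = 0.00175), to 11.50 ± 0.11 at 24 h, against 11.81 ± 0.14 at 0.5 h, and these values did not overlap. Taken as the mean of its probe sets, the Mcl1 difference was -0.11 (adjusted p = 0.179), and that of Bcl2l1 was 0.19 (adjusted p = 0.0611).

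Between neighbouring times no member passed. The comparison of 2 h with 0.5 h called 0 of 9, with 4 at an unadjusted p under 0.05, beside 4.68% of all genes. For 6 h against 2 h the count was 0 of 9, with 1 at an unadjusted p under 0.05, beside 0.405% of all genes. For 24 h against 6 h it was 0 of 9, with 3 at an unadjusted p under 0.05, beside 13.2% of all genes. There Mcl1 was at -0.17 ± 0.06 (limma, adjusted p = 0.0648) and passed without the DMSO array at 24 h, the BayK8644 array at 0.5 h or the combination array at 0.5 h, and Bcl2l1, at 0.17 ± 0.07 (adjusted p = 0.108), passed without the exendin-4 array at 24 h. From 0.5 to 2 h, Bcl2l11 was at -0.45 ± 0.15 (adjusted p = 0.103).

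**Figure D4:**
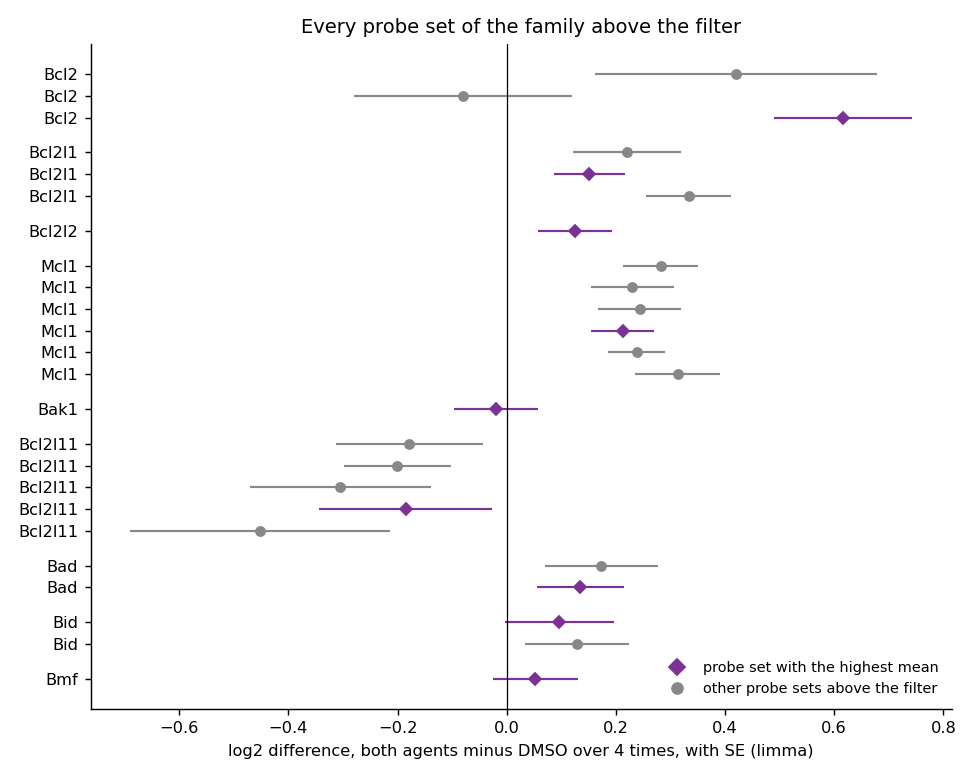
Log2 difference of the combination from DMSO over the 4 times, with SE from limma, for every probe set of the 9 genes above the filter. All 6 probe sets of Mcl1 lie between 0.21 and 0.31, all 5 of Bcl2l11 lie below 0, and the 3 of Bcl2 lie between -0.08 and 0.62.

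Probe sets of 1 gene share its RNA and are not replicates, but they show where the reading depends on the probes. Mcl1 had 6 probe sets, all above the filter, and all 6 were higher under the combination than with DMSO, from 0.21 to 0.31. Tested among 19204 named probe sets, 3 of the 6 passed, and the highest-mean one, with adjusted p = 0.0526, did not. Bcl2l11 had 5 probe sets, all above the filter, and all 5 were lower under the combination than with DMSO, from -0.45 to -0.18, and none passed. With BayK8644 present, all 5 were higher at 0.5 h and all 5 were lower at 6 h and 24 h, and none of these passed either. Between 24 and 0.5 h all 5 were lower, from -0.50 to -0.11, and 1 passed.

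Bcl2 had 3 of 5 probe sets above the filter. Besides the one read here, they had means of 4.48 and 4.17, close to the floor, and differed by 0.42 ± 0.26 and -0.08 ± 0.20 between the combination and DMSO (limma, adjusted p = 0.321 and 0.837). With BayK8644 at 24 h, all 3 were higher, from 0.51 to 0.94, and none passed in this fit. Between the combination and BayK8644 alone, the 3 Bcl2 probe sets lay between -0.46 and 0.35, with 2 positive. The test of whether the effects of the agents added up gave -0.43 to 0.44, with only the one read here positive. No Bcl2 probe set passed in either. Bcl2l1 had 3 of 4 above the filter, all 3 higher under the combination, from 0.15 to 0.33. The dimmest of the 3, which was not the one read here, passed at 0.33 ± 0.08 (adjusted p = 0.0362). For the decline of Mcl1 between 24 and 0.5 h, 2 probe sets passed, at -0.31 and -0.27, and the other 4 lay between -0.03 and 0.00. With BayK8644 present at 0.5 h, 4 of the 6 Mcl1 probe sets were higher, and all 6 lay between -0.01 and 0.23. The BayK8644 effect at 24 h less that at 0.5 h was -0.03 on the one read here. It was positive on 4 of the 6, up to 0.40, and none passed.

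The members differed in how much they varied over the 16 arrays. Bcl2 had an SD of 0.37, larger than that of 95.1% of all genes tested, Bid of 0.22 (80%) and Mcl1 of 0.18 (70.9%), against a median SD of 0.14 over all genes. Over the 16 arrays, which share the same times and treatments, Bcl2 followed Bcl2l1 with a Pearson correlation of 0.81 and Bcl2l2 with 0.74, while its correlation with Mcl1 was 0.15 and with Bcl2l11 -0.32. The genes most like Bcl2 by Pearson correlation over the 16 arrays were Crip2 (0.94), Cyp2d26 (0.90) and Gramd3 (0.90). For Mcl1 they were Dbr1 (0.88), Ube2e3 (0.87) and Ing2 (0.87), for Bid Ptprn, Aen and Tcl1b3 (all 0.86), and for Bcl2l1 Rasl11a (0.89), Insig2 (0.88) and Diras1 (0.88).

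Other genes of the pathway were read from lists chosen with earlier results of these data known. Of 17 other family genes, 6 were tested, and 1 passed for the combination against DMSO (16.7%, beside 6.98% of all genes) and 0 rose. Pmaip1, which encodes the BH3-only protein Noxa that neutralises Mcl1, fell to 10.40 under the combination, against 10.75 with DMSO, a difference of -0.34 ± 0.06 (limma, adjusted p = 0.0136), and these ranges did not overlap. The list's median difference was -0.04. Between 24 and 0.5 h, 2 of the 6 passed (33.3%, beside 23.6% of all genes): Bbc3, which encodes the BH3-only protein Puma, rose by 0.60 ± 0.06 (adjusted p = 1.26e-05), and Bcl2l13 fell by 0.21 on the log2 scale (adjusted p = 0.0147).

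Of 22 caspase, apoptosome and IAP genes, 16 were tested. For the combination against DMSO 1 passed (6.25%, beside 6.98% of all genes), Casp2, an initiator caspase, with 10.82 under the combination and 11.26 with DMSO (-0.44 ± 0.06, limma, adjusted p = 0.0034). It passed for BayK8644 alone as well, at -0.31 ± 0.06 (limma, adjusted p = 0.0364), and these comparisons share their DMSO arrays. BayK8644 alone against DMSO called 1 of the 16 (6.25%, beside 0.839% of all genes). The list's median for the combination was -0.02. Between 24 and 0.5 h, 1 of the 16 rose, Apaf1, the scaffold of the apoptosome (0.25 ± 0.06, adjusted p = 0.00947), and 2 fell, Birc5, which encodes the mitotic protein survivin (-0.93 ± 0.05, adjusted p = 6.25e-08), and Casp2 (-0.27 ± 0.06, adjusted p = 0.00771). These 3 are 18.8% of the list, beside 23.6% of all genes. The share of this list called was thus below that of all genes between these times and for the combination against DMSO. For BayK8644 alone it was above, through 1 gene.

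Of 30 genes known to act on the members, 25 were tested, and for the combination against DMSO 2 rose and 1 fell (12%, beside 6.98% of all genes). Ddit3, which encodes the stress factor CHOP, averaged 12.29 under the combination and 11.77 with DMSO (0.52 ± 0.07, limma, adjusted p = 0.00237). Atf2, a CREB relative, rose by 0.21 ± 0.04 (adjusted p = 0.0165), and Stat5a, a factor known to act on Bcl2l1, fell by 0.52 on the log2 scale (adjusted p = 0.0215). The list's median difference was 0.05. With BayK8644 at 6 h, 4 of the 25 passed (16%, beside 2.47% of all genes). Ddit3 (0.38 ± 0.07, limma, adjusted p = 0.0252) and Dynll1, which encodes a dynein light chain known to bind Bim and Bmf (0.32 ± 0.07, adjusted p = 0.0442), rose. Foxo3, a known activator of Bcl2l11, was at -0.54 ± 0.11 (adjusted p = 0.0396), and Stat5a, outside the 3 with the lowest adjusted p, was at -0.62 ± 0.13 (adjusted p = 0.0469). At 0.5, 2 and 24 h, 0, 1 and 1 of the 25 passed for BayK8644 (0, 4 and 4%, beside 0.217, 1.63 and 5.1% of all genes). Between 24 and 0.5 h, 4 of the 25 passed (16%, beside 23.6% of all genes). Fbxw7 (0.31 ± 0.05) and Ddit3 (0.40 ± 0.07) rose there. Mapk8 (-0.37 ± 0.07) and, outside the 3 with the lowest adjusted p, Foxo1 (-0.30 ± 0.10) fell. Among 7 reference genes tested, Pgk1 passed for the combination against DMSO (14.3%, beside 6.98% of all genes), at 0.17 ± 0.04 (adjusted p = 0.0366), which is close in size to the difference of Mcl1.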

How the data were processed

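RNA of R7T1 cells was measured on 16 1-colour Affymetrix arrays, 1 for each of 4 treatments at each of 4 times. The deposited values are linear intensity values for 45101 probe sets. The submitters' processing notes name GCRMA, with no version, and further steps are not given in the sources used here. They were put on the log2 scale as deposited, without a pseudocount or renormalization, and the number of arrays limits the precision.

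Names came from the platform annotation of the probe sets (34958 had 1 symbol, 932 several and 9211 none). The 64 control probe sets and those with any other number of symbols than 1 were left out. The highest-mean probe set stood for each of 18193 genes, and genes with log2 4 (intensity 16) on at least 2 arrays were kept, which left 10609. Groups came from the sample titles.

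Linear models were fitted to all genes in R 4.3.3 with limma 3.58.1 (eBayes with an intensity trend), and Benjamini-Hochberg adjusted p-values were called at 0.05. The model with time and treatment had 9 residual degrees of freedom, and the model with each agent at each time had 4. In that with each agent at each time, 12.1, 25.5, 23 and 39.4% of the residual sum of squares fell at 0.5, 2, 6 and 24 h. Time was the only block, since the labels carry no replicate numbers. Alternatives changed the filter, the pseudocount, the scaling, the probe set rule, the eBayes setting, the arrays and the times. All 9 members are named; of each list, called genes were named in the comparisons described, up to 3 by adjusted p. Members, lists and motifs were chosen with earlier results of these data known. Promoter sequences and gene positions are from RefSeq for GRCm38.p6, which is not stated to be the build of the arrays' annotation.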

Additional observations from a re-analysis of the deposited data

Results flagged for a closer look

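Within each treatment, each member's 4 arrays were searched for a value far from the other 3 (by Dixon's ratio), which gave 36 groups, 2 of them with such a value. Chance gives such a value in about 1 of 20 groups of replicates. The 4 arrays of a treatment came from 4 times and are not replicates, so that rate need not apply here. Bak1 with exendin-4 at 6 h was at 6.62, against 6.46 to 6.47 on the other exendin-4 arrays. Bmf with exendin-4 at 24 h was at 3.95, against 3.92 on the other exendin-4 arrays, all near the floor of the method. No treatment effect on a member was shown to differ between times.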

How the results depend on the processing

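Of 612 counts of members called under an alternative, 551 kept to within 1.5 times the value reported, 48 were lower and 13 higher. No called member changed its sign, and where a count changed, the cause was not tested. Most of the 612 came from comparisons that called 0 members. Where members were called, the count was kept in 8 of 29 alternatives for the combination against DMSO and 17 of 29 for the combination against exendin-4. It was kept in 10 of 28 for BayK8644 at 24 h and 25 of 27 for 24 against 0.5 h. For the combination against DMSO, 2 members were called, and 1 with no filter, the mean of the probe sets, every probe set on its own, median centring, quantile normalization, no trend or without 0.5 h, and 0 without 2, 6 or 24 h (0 to 2 with 1 array left out). In these counts every gene is read on its highest-mean probe set where each probe set is tested on its own; on any of their probe sets, Bcl2, Bcl2l1 and Mcl1 passed for the combination against DMSO. For BayK8644 against DMSO, 0 became 1 without 0.5 h and 2 with the agent present against absent (0 to 1 with 1 array left out). For the combination against exendin-4, 1 became 0 with the mean of the probe sets or without 2, 6 or 24 h, and 2 without 0.5 h (0 to 2 with 1 array left out). For BayK8644 at 24 h, 1 became 0 with no filter, log2 of intensity plus 16, every probe set, no trend, or without 0.5 or 6 h (0 to 2 with 1 array left out). For 24 against 6 h, 0 became 1 without 0.5 h (0 to 1 with 1 array left out), and for 24 against 0.5 h, 4 became 2 with the mean of the probe sets (2 to 4 with 1 array left out). Of the 29 alternatives for the combination against DMSO, Bcl2 kept its call in 22 and Mcl1 in 9. Treatments were matched by time in the model, and no block by replicate number was possible because the labels carry none. No treatment and time had a replicate, Bmf lay near the floor, and no protein was measured.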
